A study of Homo sapiens with 24 samples.

Results

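The HOX cluster genes were described in BPH-1 and RWPE-1, 2 immortalized human prostate epithelial cell lines, before and after C-Raf overexpression and in lines grown from C-Raf-driven metastases. Members were all rows of the deposited tables whose symbol is HOXA, HOXB, HOXC or HOXD followed by digits alone, which gave 39 of 60448 symbols. The rule reads gene symbols alone. The members are 11 HOXA genes (GRCh38, chr7:27092993-27200106, minus strand), 10 HOXB genes (chr17:48528526-48729178, minus strand), 9 HOXC genes (chr12:53938765-54056030, plus strand) and 9 HOXD genes (chr2:176092891-176190907, plus strand).

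HOX genes encode homeodomain transcription factors that set position along the body axis. Within a cluster they lie in the order of their paralog number, with anterior genes at the 3′ end and posterior genes at the 5′ end, and neighbours often share chromatin state. Posterior members pattern the urogenital tract, and HOXB13 and HOXA13 are known for their roles in the prostate. Polycomb proteins silence HOX clusters, Trithorax proteins keep them active, and TALE homeodomain proteins bind DNA together with the HOX proteins.

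Of BPH-1, immortalized with SV40, 12 libraries were used, namely 3 vector controls, 3 of C-Raf parental cells and 6 of lines from metastases. Of RWPE-1, immortalized with a papillomavirus, 12 were used as well, with 1 vector control, 4 of C-Raf parental cells and 7 of lines from metastases. Vector controls carried the empty lentiviral vector FU-ILYW and C-Raf parental cells the same vector with C-Raf under a ubiquitin promoter. Both also carried luciferase reporters. Metastasis-derived lines were grown in culture for about a week from tumors that C-Raf parental cells had formed in immunodeficient mice, and each line is 1 library. By their labels the RWPE-1 lines came from lymph node, spine and bone and the BPH-1 lines from bone, except for the pair numbered R075, whose title and treatment labels name different sites. The cell lines were grown in different media and their libraries came from different tables. A difference between the cell lines therefore cannot be told apart from medium or table. Nothing in the labels says that the BPH-1 triplicates came from separate cultures, and p values then measure only the spread between these libraries, which may be technical.

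Levels are expected counts scaled to protein-coding library size (CPM) after TMM scaling. Protein-coding counts ran from 20568425 to 42011323 in 21 libraries. Of the BPH-1 lines from metastases, R071, R074 and the one titled bone R075 held 464738, 132403 and 111185 protein-coding counts and only 120, 11 and 8 counts on all HOX genes. They are in every fit below unless named as left out, and figures show the other 21. The BPH-1 parental and metastasis-derived libraries came from different tables, so table and stage cannot be told apart there. Of the luminal prostate markers, KLK3 was at 0 in all 24 libraries, while KRT5 and KRT14, keratins of basal epithelium, were abundant. In a bulk library, fewer cells that express a gene and less RNA per cell cannot be told apart.

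Members of every cluster were transcribed in both cell lines. In the 21 deep libraries, 14 of the 39 members reached 1 CPM in every library and 7 stayed below 1 CPM in all of them. Corrected for exon length, HOXA9 (ENSG00000078399, chr7:27162435-27175180) had the highest level of all members in each cell line, at 14.2 CPM per kb in RWPE-1 C-Raf parental cells and 9.40 CPM per kb in BPH-1 C-Raf parental cells. HOXD10 (ENSG00000128710, chr2:176108790-176119942) came next in both, at 9.55 and 6.73 CPM per kb. HOXB7 led the HOXB cluster in both, at 4.36 and 6.41 CPM per kb. HOXC8 led the HOXC cluster in RWPE-1 with 5.19 CPM per kb, and HOXC13 led it in BPH-1 with 1.01 CPM per kb. The ranges of HOXD10 and of its neighbour HOXD11 over libraries overlapped in RWPE-1 (8.52 to 10.9 and 8.56 to 10.3 CPM per kb). In BPH-1 those of HOXD10 and HOXB7 overlapped (5.94 to 7.52 and 6.10 to 6.97 CPM per kb). So did those of HOXC13 and HOXC8 in BPH-1 (0.877 to 1.11 and 0.834 to 0.908 CPM per kb). HOXB13 (ENSG00000159184, chr17:48724763-48729178) was low in every group, with 1.92 CPM in the RWPE-1 vector control and 5.43, 6.0 and 4.67 CPM in the BPH-1 vector controls.

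**Figure D1:**
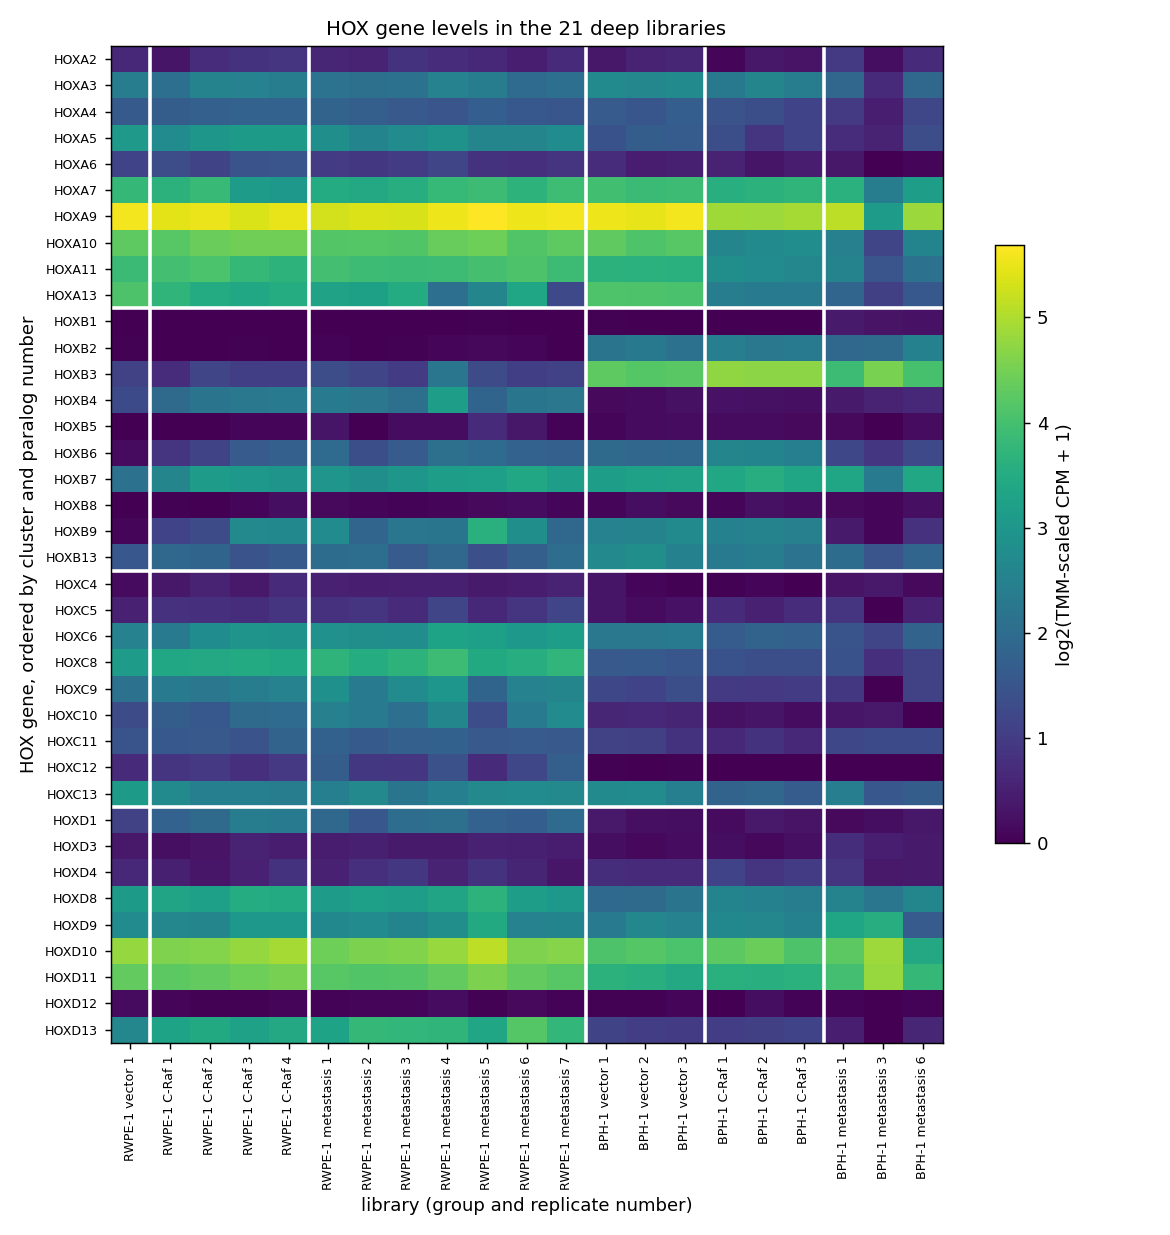
Each column is 1 of the 21 deep libraries and each line of the map 1 of the HOX genes shown, ordered by cluster and paralog number, with color giving log2(TMM-scaled CPM + 1). HOXA9 is the brightest gene in every library shown but R072 (BPH-1 metastasis 3), HOXB2 and HOXB3 are brighter in BPH-1 than in RWPE-1, and HOXA10, HOXA11 and HOXA13 are dimmer in BPH-1 C-Raf and metastasis libraries than in BPH-1 vector controls.

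The first comparison asked how the HOX code differs between the cell lines at the same stage, with 4 RWPE-1 against 3 BPH-1 C-Raf parental libraries. Of 34 members tested, 29 (85.3%) had an adjusted p below 0.05 (edgeR, quasi-likelihood test, p values adjusted by Benjamini and Hochberg), against 74% of all genes tested, so the share of members is close to that of the genome. RWPE-1 was higher for 23 members, against 38% of all genes, and lower for 6, against 36%. The HOXC cluster was higher in RWPE-1 for 8 of its 9 members and lower for 0. In the HOXB cluster 1 of 7 tested members was higher and 5 were lower. The counts include members that entered the test through 1 cell line alone, such as the higher HOXB gene, HOXB4.

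Of the anterior HOXB genes, 2 were far lower in RWPE-1. HOXB2 (ENSG00000173917, chr17:48540894-48544989) had 4.36, 3.83 and 4.08 CPM in the BPH-1 C-Raf parental libraries, while the 4 RWPE-1 libraries together held 1 count of it. The ratio of the summed levels was 618 (95% exact interval 110.2 to 24461, counting error only). HOXB3 (ENSG00000120093, chr17:48548870-48604912) had 25.9, 24.7 and 24.8 CPM in BPH-1 and 0.646, 1.29, 1.07 and 1.06 CPM in RWPE-1, a log2 difference of -4.62 ± 0.20 (SE, edgeR adjusted p = 1.12e-06). Their neighbour HOXB4 (ENSG00000182742, chr17:48575513-48580111) ran the other way, with 2.92, 3.54, 3.85 and 4.17 CPM in RWPE-1 and 0.218, 0.187 and 0.171 CPM in BPH-1. With 7, 6 and 5 counts in the BPH-1 libraries, HOXB4 entered the test through RWPE-1, so no test of it is given. The ratio of its summed levels, RWPE-1 over BPH-1, was 18.8 (95% exact interval 11.8 to 32.01, counting error only). The groups did not overlap for any of the 3 genes, but the share of all genes without overlap was not counted. In this comparison 74% of all genes tested passed the threshold. HOXB3 shares 433 exon bases with HOXB6 and 159 with HOXB4, so reads in those stretches cannot be assigned to 1 of them with certainty.

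Several other members were higher in RWPE-1. HOXD13 (ENSG00000128714, chr2:176092891-176095938), which patterns digits and genitalia, had 8.90, 9.91, 8.46 and 9.72 CPM in RWPE-1 and 1.06, 1.12 and 1.20 CPM in BPH-1, a log2 difference of 3.04 ± 0.13 (edgeR adjusted p = 1.28e-06). HOXC10 (ENSG00000180818, chr12:53985065-53990279) held 6, 8 and 4 counts in the BPH-1 libraries and HOXD1 4, 10 and 7. Both entered the test through RWPE-1, so no test of them is given. The ratios of summed levels, RWPE-1 over BPH-1, were 13.0 for HOXC10 (95% exact interval 8.11 to 22.2) and 15.3 for HOXD1 (9.87 to 24.9). These intervals cover counting error only. HOXC12 held 0 counts in the 3 BPH-1 libraries and 128 in the 4 RWPE-1 libraries, which makes it at least 26.4-fold higher in RWPE-1 when 3 counts over the BPH-1 group are taken as the floor. HOXB13 was lower in RWPE-1, at 2.78, 2.58, 1.73 and 2.04 CPM against 4.11, 4.33 and 3.46 CPM (log2 difference -0.80 ± 0.20, adjusted p = 0.00729). HOXB6 was also lower in RWPE-1, by -1.55 ± 0.35 on the log2 scale (adjusted p = 0.00428).

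The second comparison set the 3 BPH-1 C-Raf parental libraries against the 3 BPH-1 vector controls. C-Raf cells had lower levels of most HOXA genes, with the largest falls for the posterior genes HOXA13, HOXA10 and HOXA11. Of 29 members tested, 21 passed (edgeR quasi-likelihood test, Benjamini-Hochberg adjustment), against 59.8% of all genes tested. Lower levels were called for 15 members (51.7%), against 29.4% of all genes, and higher levels for 6, against 30.4%. DESeq2 called 15 members, beside 51.4% of all genes. Among HOXA genes 9 of 10 tested fell and 0 rose, and the median log2 fold change of the 10 was -0.58, beside a median of -0.0019 over all genes tested. Markers of other cell types moved in the same comparison. The summed level of 7 stromal fibroblast markers was 25.05 to 27.2 CPM in vector controls and 11.3 to 11.5 CPM in C-Raf cells, nearly all of it COL1A1, and that of 6 haematopoietic markers was 0.557 to 0.816 CPM and 0.125 to 0.187 CPM. The sum of 4 endothelial markers went the other way, from 0.901 to 1.28 CPM in vector controls up to 1.46 to 1.54 CPM. Of 8 epithelial markers, KRT14 was at 144 to 150 CPM in vector controls and 298 to 309 CPM in C-Raf cells. KRT8 was at 1229 to 1308 CPM and 907 to 939 CPM. The sums of the 8 overlapped (6037 to 6284 CPM and 6157 to 6319 CPM). Their part in the HOX results was not tested.

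HOXA13 (ENSG00000106031, chr7:27193503-27200106), a regulator of limb and urogenital development, went from 16.3, 16.0 and 15.7 CPM in the vector controls to 4.30, 4.14 and 4.08 CPM. Its log2 fold change was -1.96 ± 0.07 (SE, edgeR adjusted p = 1.03e-18). HOXA10 (ENSG00000253293, chr7:27170591-27180261) went from 18.6, 16.5 and 17.5 CPM to 4.99, 5.45 and 5.93 CPM, a log2 fold change of -1.71 ± 0.08 (adjusted p = 3.31e-17). In both genes the groups did not overlap, but the share of all genes without overlap was not counted. In this comparison 59.8% of all genes tested passed the threshold. HOXA11 (ENSG00000005073, chr7:27181510-27185223) went from 11.6, 11.4 and 11.2 CPM to 5.98, 5.70 and 5.24 CPM, a log2 fold change of -1.03 ± 0.08 (adjusted p = 4.65e-12). HOXA9, a transcription factor known for its part in blood progenitors, went from 45.7, 43.7 and 46.8 CPM to 28.3, 27.8 and 29.3 CPM, a log2 fold change of -0.69 ± 0.04 (adjusted p = 2.98e-14). It remained the HOX gene with the highest level per length in C-Raf cells.

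Nearer the anterior end, HOXA3, HOXA4, HOXA5 and HOXA7 fell by 0.32, 0.48, 0.75 and 0.30 on the log2 scale, each past the threshold, and HOXA5 thus fell by about as much as HOXA9. Over the 10 tested HOXA genes, Spearman's rho between paralog number and log2 fold change was -0.79. It was -0.60 over 6 HOXB, -0.64 over 7 HOXC and -0.94 over 6 HOXD genes. These are descriptions across genes, which share the same 6 libraries and in part the same reads. HOXA7 shares 62.5% of its exon bases with the antisense gene HOXA-AS3, HOXA11 31.1% with HOXA11-AS and HOXA10 16.4% with HOXA10-AS. The sources used here do not say whether strand was used in counting, so reads in the shared stretches cannot be assigned to 1 of the partners with certainty. The rest of the exon bases is not shared with these antisense genes.

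The upstream sequences of the falling genes HOXA9, HOXA10 and HOXA13 are shown with those of HOXD11 and HOXD13, posterior genes that did not pass the threshold, so that posterior members with and without a call can be read side by side. They are the bases before a start of the gene in RefSeq (GRCh38.p14) that no annotated exon covers, 5′ to 3′ on the gene's strand. They come from chr7:27165538-27165787, chr7:27174321-27174570 and chr7:27200107-27200341 (minus strand) and chr2:176107030-176107279 and chr2:176092471-176092720 (plus strand). HOXA10 also has a start further upstream with 0 such bases, so its sequence lies before an inner start. Capitals mark matches to TATAAA or CCAAT on either strand, and matches that overlap run together.
HOXA9: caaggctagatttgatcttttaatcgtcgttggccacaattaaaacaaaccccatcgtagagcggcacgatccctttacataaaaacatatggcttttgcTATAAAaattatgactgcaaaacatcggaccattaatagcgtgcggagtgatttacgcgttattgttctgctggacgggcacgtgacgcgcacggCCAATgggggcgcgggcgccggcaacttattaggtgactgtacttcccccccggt
HOXA10: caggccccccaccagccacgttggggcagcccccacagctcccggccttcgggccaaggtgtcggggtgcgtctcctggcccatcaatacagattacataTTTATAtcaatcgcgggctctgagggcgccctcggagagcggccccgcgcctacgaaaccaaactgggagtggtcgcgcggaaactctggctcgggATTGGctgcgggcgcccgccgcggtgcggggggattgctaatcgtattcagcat
HOXA13: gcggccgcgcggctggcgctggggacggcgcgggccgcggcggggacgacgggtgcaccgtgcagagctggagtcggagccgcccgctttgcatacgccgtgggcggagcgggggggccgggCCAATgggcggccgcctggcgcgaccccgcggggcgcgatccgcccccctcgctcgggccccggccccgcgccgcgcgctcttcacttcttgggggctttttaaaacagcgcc
HOXD11: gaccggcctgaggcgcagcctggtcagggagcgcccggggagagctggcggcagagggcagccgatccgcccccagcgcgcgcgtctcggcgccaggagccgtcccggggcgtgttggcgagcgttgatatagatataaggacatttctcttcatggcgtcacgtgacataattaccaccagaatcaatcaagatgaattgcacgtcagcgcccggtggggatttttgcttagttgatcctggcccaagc
HOXD13: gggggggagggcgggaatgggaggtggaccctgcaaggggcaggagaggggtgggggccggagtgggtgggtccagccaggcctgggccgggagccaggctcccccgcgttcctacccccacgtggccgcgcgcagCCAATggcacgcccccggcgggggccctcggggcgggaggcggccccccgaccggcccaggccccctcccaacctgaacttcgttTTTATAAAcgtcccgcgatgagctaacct
A match to CCAAT stood before HOXA9, HOXA10, HOXA13 and HOXD13, and one to TATAAA before HOXA9 and HOXA10, while HOXD13 had 2 TATAAA matches that overlap on opposite strands. Of 35116 RefSeq promoters, 32% held CCAAT and 10.7% held TATAAA in their 250 upstream bases. None of the 5 sequences held the AP-1 motif TGANTCA or the ETS core CCGGAA on either strand, which 6.57% and 14.5% of promoters held. In windows of 235 bases, the length before HOXA13, the shares were 31.1% for CCAAT, 10.5% for TATAAA, 6.32% for TGANTCA and 13% for CCGGAA. The sequence before HOXA13 is 235 bases long and has 40 CG dinucleotides, and those before HOXA9, HOXA10, HOXD11 and HOXD13 have 20, 24, 23 and 21 in 250 bases, beside a median of 11 over all promoters. A match is a description of letters and says nothing about which factor binds. An entry was found for 20 of the 39 members. Among those without an entry were HOXA5, HOXB2, HOXB3, HOXB4, HOXB5, HOXB6, HOXB7, HOXB8, HOXB9, HOXB13, HOXC6, HOXC8, HOXC9, HOXC10, HOXC11, HOXC12, HOXC13 and HOXD9.

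In the HOXC cluster of BPH-1 the posterior members fell. Of the 4 tested posterior HOXC genes, all 4 fell, beside 29.4% of all genes. HOXC13 (ENSG00000123364, chr12:53938765-53946544), a regulator of hair and nail keratins, went from 5.53, 5.67 and 4.51 CPM to 2.52, 2.68 and 2.12 CPM, a log2 fold change of -1.11 ± 0.12 (edgeR adjusted p = 1.39e-08). HOXC10, also among the 4, had 21, 19 and 19 counts in vector controls and 6, 8 and 4 in C-Raf cells (0.137 to 0.576 CPM). It entered the test through the vector controls, so its fitted fold change is not read as a result. HOXB13 fell from 5.43, 6.0 and 4.67 CPM to 4.11, 4.33 and 3.46 CPM (log2 fold change -0.44 ± 0.11, adjusted p = 0.00129).

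The genes that rose were central or anterior. HOXB6 (ENSG00000108511, chr17:48595751-48604992) went from 2.91, 2.67 and 2.73 CPM to 4.99, 4.92 and 4.45 CPM, a log2 fold change of 0.77 ± 0.11 (edgeR adjusted p = 1.26e-06). HOXB3 rose by 0.48 ± 0.05 (adjusted p = 2.48e-09), from 18.5, 17.1 and 17.6 CPM to 25.9, 24.7 and 24.8 CPM. HOXD8 rose by 0.57 ± 0.12 (adjusted p = 0.000144) and HOXB7 by 0.20 ± 0.08 (adjusted p = 0.0278). The call of HOXB7 was lost with DESeq2, without vector control 1 and without C-Raf library 2. HOXC5 and HOXD4 also passed, at levels of 1.22 CPM or less. HOXC5 had 10, 4 and 8 counts in vector controls and 19, 14 and 19 in C-Raf cells. It entered the test through the C-Raf cells, so its call is not read as a result. Of the 4 tested posterior HOXD genes 0 passed, and HOXD13 stood at 1.25, 1.06 and 1.01 CPM in vector controls and 1.06, 1.12 and 1.20 CPM in C-Raf cells.

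**Figure D2:**
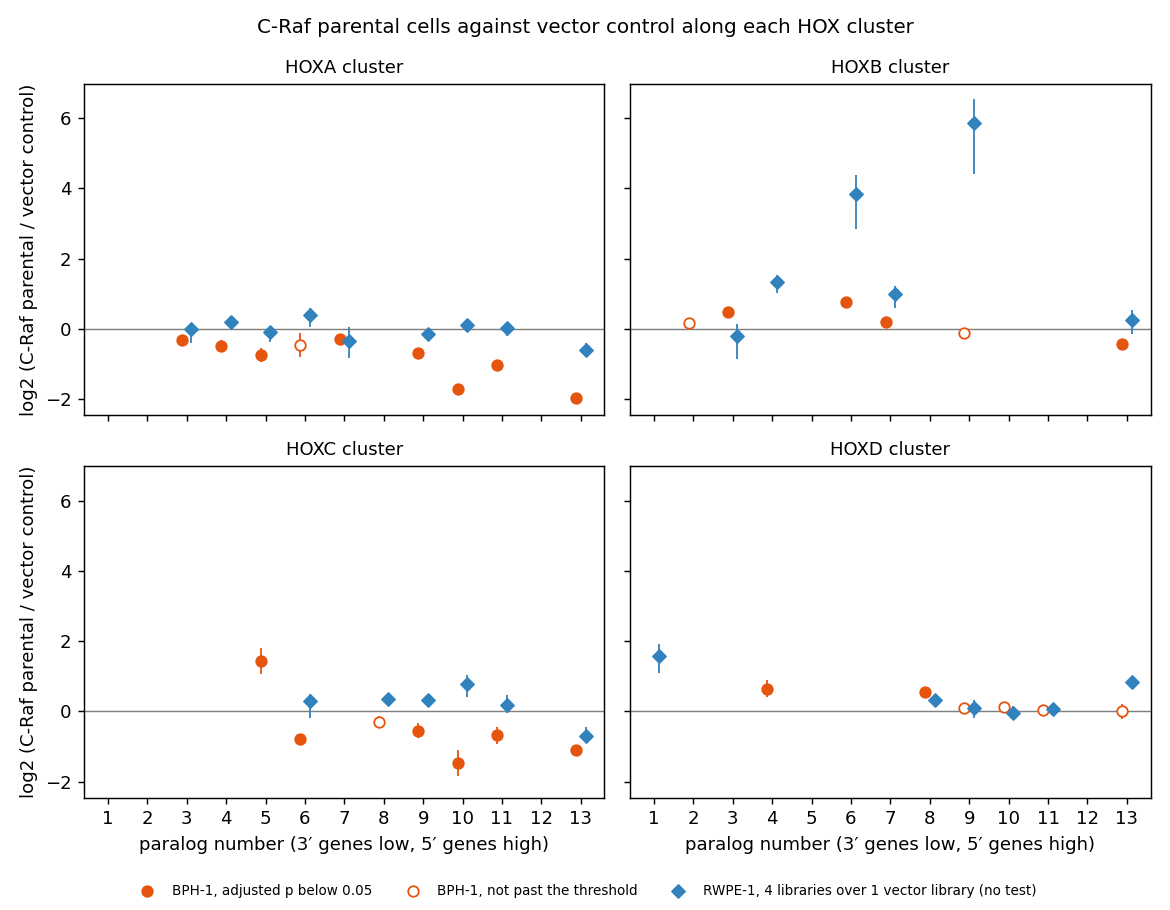
The log2 ratio of C-Raf parental cells to vector control is plotted against paralog number in each cluster, for BPH-1 as edgeR estimates with SE bars (3 against 3 libraries, filled where adjusted p was below 0.05) and for RWPE-1 as the mean of 4 libraries over the single vector control with bars for the lowest and highest library. BPH-1 falls to -1.96 at HOXA13, where RWPE-1 is also below 0 with a mean ratio of 0.66 to the vector control. RWPE-1 stays near 0 at HOXA10 and HOXA11 and stands far above 0 at HOXB6 and HOXB9.

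RWPE-1 had a single vector control, so its values are set side by side without a test. Of 28 members with at least 1 CPM in either group, 5 had a C-Raf mean at least 2-fold above the vector control (17.9%, beside 7.43% of all genes) and 0 were at least 2-fold below (2.53% of all genes). HOXB9 (ENSG00000170689, chr17:48621159-48626356) had 2 counts, or 0.0572 CPM, in the vector control and 1.21, 1.49, 5.37 and 5.28 CPM in the C-Raf parental libraries. The ratio of summed levels was 58.6 (95% exact interval 16.1 to 485, counting error only), and the C-Raf libraries themselves fell into a low and a high pair. Marker sums moved with the same libraries. From the vector control through C-Raf libraries 1 to 4 the stromal sum was 7.35, 8.71, 9.66, 19.5 and 20.5 CPM and the epithelial sum 12400, 9106, 5990, 3694 and 3786 CPM. Their part in the HOXB values was not tested. HOXB6 had 0.114 CPM in the vector control and 0.814, 1.24, 2.10 and 2.36 CPM in the C-Raf libraries, a ratio of 14.3 (5.51 to 52.9). HOXB4, HOXB7 and HOXD1 had mean ratios of 2.53, 2.01 and 2.99, and HOXD13 had 5.18 CPM in the vector control and 8.46 to 9.91 CPM in the C-Raf libraries. Only the first C-Raf parental library came from the table of the vector control. In it HOXB9 was at 1.21 CPM, HOXB6 at 0.814 CPM, HOXB4 at 2.92 CPM and HOXD13 at 8.90 CPM, each above the vector control.

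Among the posterior HOXA genes of RWPE-1, HOXA10 had 18.4 CPM in the vector control and 17.6, 20.03, 20.7 and 20.8 CPM in the C-Raf libraries, and HOXA11 had 13.7 CPM and 14.9, 15.8, 12.8 and 11.9 CPM. HOXA13 was lower in all 4 C-Raf libraries, at 12.2, 10.3, 9.51 and 10.4 CPM against 16.1 CPM. HOXA9 had 47.2 CPM against 40.2 to 44.8 CPM.

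The difference between the C-Raf effects of the cell lines was fitted as an interaction over these 11 libraries after the values had been seen, but no call from it is given. Such a fit takes the spread of the lone RWPE-1 vector control from the other groups, and those did not vary alike, since pairs of RWPE-1 C-Raf libraries differed by 30.03 to 232 times counting noise and pairs of BPH-1 libraries by 1.68 to 4.57 times. The values of the cell lines are therefore only set side by side.

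**Figure D3:**
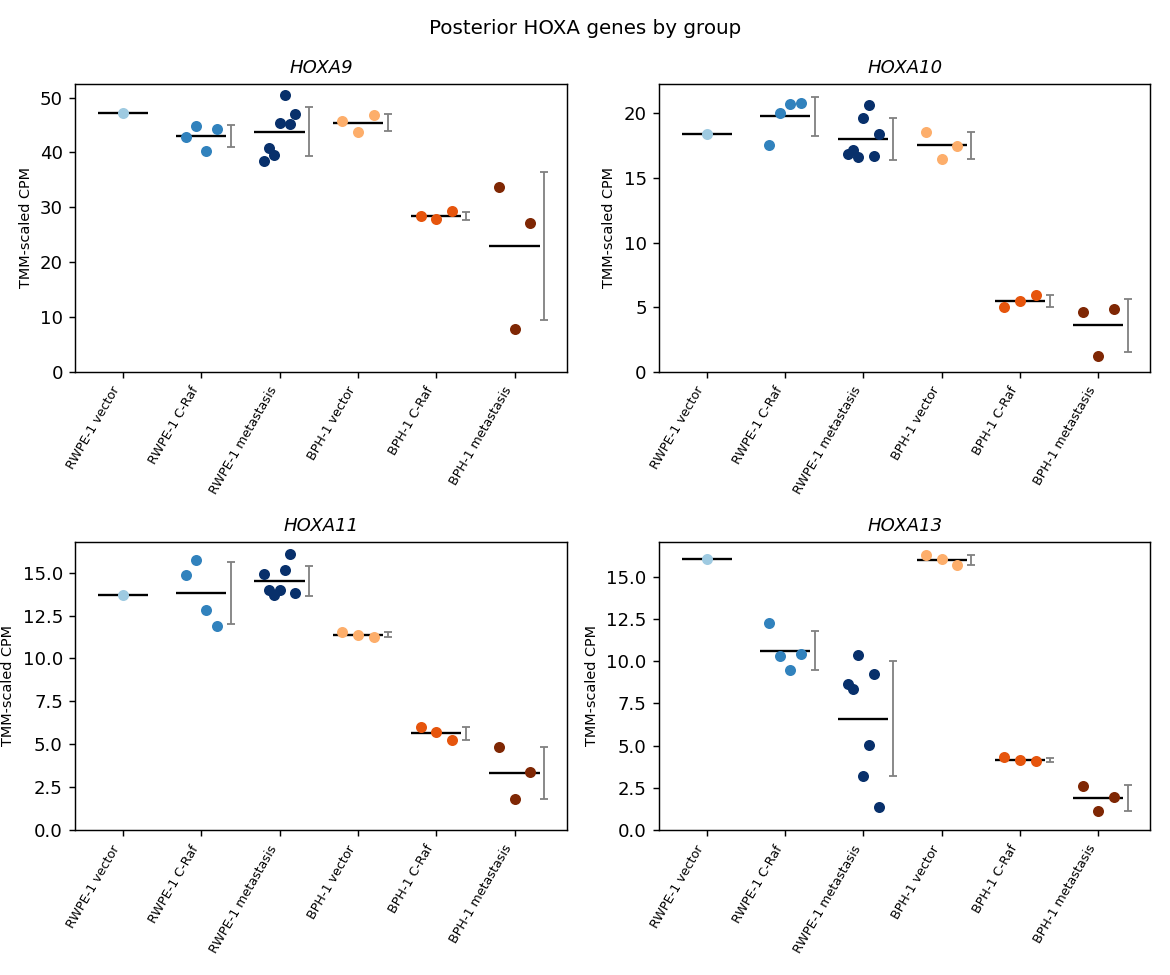
Levels of the 4 posterior HOXA genes in the 21 deep libraries in TMM-scaled CPM, with 1 point per library, a black line at the group mean and a grey bar for 1 SD. BPH-1 C-Raf libraries lie below BPH-1 vector controls for each gene, and HOXA13 of RWPE-1 metastasis lines runs from 1.37 to 10.4 CPM.

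In 1 fit of all 24 libraries, 0 of 38 members passed for the C-Raf effect common to both cell lines (edgeR), against 0.241% of all genes (0.0912% higher and 0.15% lower). At an unadjusted p below 0.05 there were 7 members (6.04% of all genes). HOXA10 and HOXA13 came closest, with log2 fold changes of -1.40 ± 0.32 (adjusted p = 0.0563) and -1.70 ± 0.40 (adjusted p = 0.0619). DESeq2 called 4 members, HOXA10, HOXA11, HOXA13 and HOXC13, all lower in C-Raf cells, beside 1.3% of all genes. Without the RWPE-1 vector control 3 were called by edgeR (HOXA10, HOXA11 and HOXA13), beside 0.743% of all genes. That fit holds vector controls of BPH-1 alone, so its C-Raf effect is no longer common to both cell lines. Without the 3 libraries of few protein-coding counts 2 were called (HOXA10 and HOXC13), beside 0.814% of all genes.

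Between the 7 RWPE-1 metastasis-derived lines and the 4 C-Raf parental libraries, 0 of 34 members passed (edgeR), against 0.0985% of all genes (0.0758% higher and 0.0227% lower). At an unadjusted p below 0.05 there were 5, beside 7.87% of all genes. DESeq2 called 0, beside 1.33%, with 6 at an unadjusted p below 0.05, beside 9.38%. HOXA13 had a lowest value of 1.37, a median of 8.34 and a highest of 10.4 CPM, against 9.51 to 12.2 CPM in the parental libraries. It was below the parental range in 6 of the 7 lines, and the log2 fold change was -0.68 ± 0.41 (edgeR adjusted p = 0.724). The low lines were Bone6, Spine2 and Bone4, at 1.37, 3.21 and 5.02 CPM, all from the table of C-Raf parental libraries 2, 3 and 4, and with a term for the table the log2 fold change was -0.90 ± 0.38 (adjusted p = 0.499). HOXA10 stayed within 16.6 to 20.6 CPM and HOXA11 within 13.7 to 16.1 CPM in the same lines. The spread of HOXA13 was thus wider than that of its neighbours in these libraries.

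Other members also varied between the RWPE-1 lines. HOXB9 had a lowest value of 2.60, a median of 3.72 and a highest of 11.2 CPM, the highest in Bone4. HOXB4 stood at 7.91 CPM in Spine2 and at 2.58 to 4.07 CPM in the other 6 lines. HOXD13 had a lowest value of 8.90, a median of 12.6 and a highest of 17.2 CPM, against 8.46 to 9.91 CPM in parental cells (log2 fold change 0.40 ± 0.17, edgeR adjusted p = 0.562). The highest value was in Bone5, and without it the log2 fold change was 0.30 ± 0.14 (adjusted p = 0.754). HOXB13 had 1.64 to 3.14 CPM and overlapped the parental range. Of all members, none of which passed, those with 5 or more lines on 1 side of the parental range were picked out after their values were seen. HOXA6 and HOXA13 were below it in 6 lines, HOXC8 and HOXC10 above it in 6, and HOXB5, HOXC9 and HOXD13 above it in 5. HOXB5 had 0, 0, 3 and 2 counts in the parental libraries and stayed below 1 CPM in every RWPE-1 library. The share of all genes that meet this rule was not counted, so the list is not read as a result about the members.

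Markers of other cell types set Bone5 apart. The sum of the 7 stromal fibroblast markers was 56.1 CPM there, including 27.9 CPM of COL1A1 and 20.4 CPM of COL3A1, against 11.4 to 14.98 CPM in the other 6 lines and 8.71 to 20.5 CPM in parental cells. Its part in the HOXD13 value was not tested. Over all 7 lines the haematopoietic sum was at most 0.503 CPM and the endothelial sum at most 0.231 CPM, and PTPRC was at 0 in each. The epithelial sum was 2699 to 7460 CPM, against 3694 to 9106 CPM in parental cells.

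In BPH-1, 2 of 28 members passed between the 6 metastasis-derived lines and the C-Raf parental cells (edgeR), against 15.6% of all genes. HOXB4 was listed as higher, against 9.53% of all genes, and HOXB6 lower, against 6.03%. The spread between these libraries was large, with a biological coefficient of variation of 60.9%, and without any 1 of the C-Raf parental libraries 0 members passed. HOXB4 had 0.327, 0.473 and 0.568 CPM in the 3 deep lines R069, R072 and the one titled thymus R075, and 30 of the 120 HOX counts in R071, or 124 CPM. The other shallow lines held 0 counts of it (R074) and 1 count (bone R075). With 7, 6 and 5 counts in the C-Raf parental libraries it entered the test through the lines from metastases, and without R071 0 members were called higher, so its fitted fold change is not read as a result. R071 also held 37 counts of HOXB9, or 153 CPM, against 4.56 to 4.83 CPM in parental cells.

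In the 3 deep lines HOXB6 and HOXB9 were low. HOXB6 had 1.34, 0.868 and 1.38 CPM against 4.99, 4.92 and 4.45 CPM in the C-Raf parental libraries, and HOXB9 had 0.327, 0.0789 and 0.745 CPM against 4.68, 4.83 and 4.56 CPM. Neither gene overlapped between the groups, but the share of all genes without overlap was not counted. Without the 3 libraries of few protein-coding counts, an alternative in which 37.7% of all genes passed, 3 of 27 members passed. They were HOXB6 (log2 fold change -1.93, edgeR adjusted p = 0.00464), HOXC11 (1.16, adjusted p = 0.0272) and HOXB9. With 10, 1 and 21 counts in the deep lines, HOXB9 entered the test through the parental libraries, so no test of it is given. RN7SL1, a noncoding RNA, took 13.1%, 30.3% and 4.60% of all counts in the deep lines R069, R072 and thymus R075 and 93.3% to 97.5% in the 3 shallow lines, against at most 0.00932% in the other 18 libraries, so it moved with the whole group. Its part in the HOX results was not tested. Line R072, with a TMM factor of 0.616, had the lowest level of every HOXA gene among the 3 deep lines, such as 1.26 CPM of HOXA10 against 4.60 and 4.90 CPM in the other deep lines. Without it as well, an alternative chosen after seeing the data in which 60.6% of all genes passed, 8 of 29 members passed, with HOXA13 at -0.83 (adjusted p = 0.0210) and HOXD13 at -1.25 (adjusted p = 0.0149).

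Markers of other cell types moved with these lines. The summed level of 7 stromal fibroblast markers was 11.3 to 11.5 CPM in BPH-1 C-Raf parental cells and 48.8 to 273 CPM in the metastasis-derived lines. COL1A1 made up 52.1, 67.7 and 46.5 CPM of it in the 3 deep lines, where DCN and LUM were at 0 to 0.213 CPM. The sum of 4 endothelial markers was 1.46 to 1.54 CPM in parental cells and 9.93, 39.2 and 2.77 CPM in the deep lines, mostly VWF. That of 6 haematopoietic markers was 0.125 to 0.187 CPM in parental cells and 0.686 to 1156 CPM in the lines. In the 3 deep lines the haematopoietic sum was 0.686, 1.03 and 1.60 CPM, and PTPRC, the pan-leukocyte gene, was at 0, 0 and 0.0355 CPM. In the 3 shallow lines 2 of the 6 haematopoietic markers had counts, SPI1 and HBB. In edgeR's test 2 of 4 tested stromal markers and 2 of 2 haematopoietic markers were higher in these lines. Their part in the HOX results was not tested. Of the 8 epithelial markers 1 rose and 3 fell in edgeR's test, and their sum in the 3 deep lines was 9395 to 11331 CPM, against 6157 to 6319 CPM in parental cells. KRT8 and KRT18 were at 78.1 to 181 CPM and 85.3 to 156 CPM in the deep lines against 907 to 939 CPM and 835 to 853 CPM. KRT14 ran the other way, at 2909 to 6324 CPM against 298 to 309 CPM, and KRT5 was at 3674 to 4879 CPM against 2673 to 2739 CPM.

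**Figure D4:**
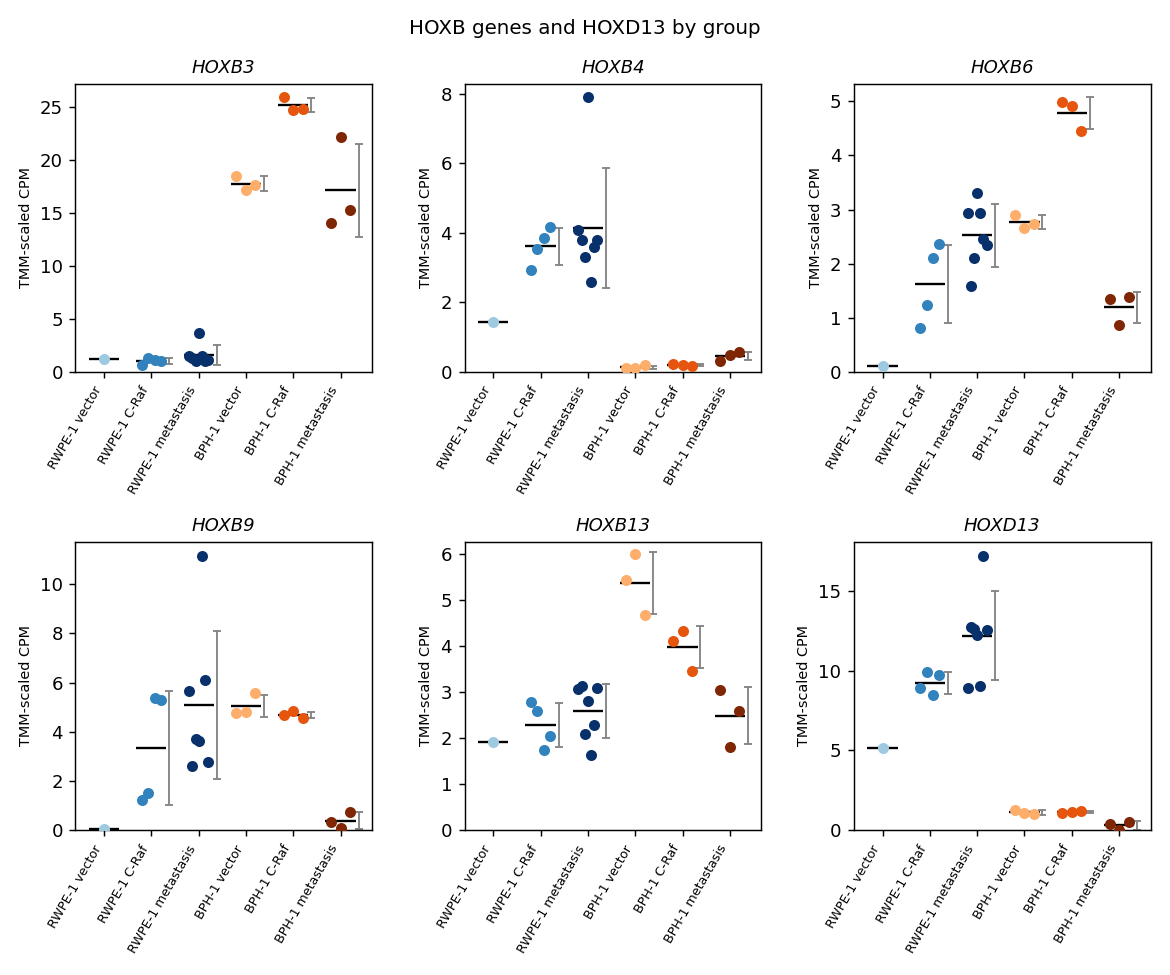
Levels of 5 HOXB genes and HOXD13 in the 21 deep libraries in TMM-scaled CPM, with 1 point per library, a black line at the group mean and a grey bar for 1 SD. HOXB6 and HOXB9 are higher in RWPE-1 C-Raf cells than in the single vector control and are low in the 3 deep BPH-1 metastasis lines, with HOXB9 at 0.0789 to 0.745 CPM there.

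The metastasis effects of the cell lines were compared as an interaction, in which 4 of 35 members differed (edgeR), against 29.1% of all genes (16.9% higher and 12.2% lower in BPH-1 relative to RWPE-1). HOXB6 (log2 difference -2.52 ± 0.54, adjusted p = 0.00206) and HOXD13 (-2.07 ± 0.52, adjusted p = 0.00613) were lower in BPH-1 relative to RWPE-1. HOXD13 had 0.392, 0 and 0.532 CPM in the deep BPH-1 lines and did not pass in the main metastasis fit of either cell line alone. The interaction pools groups that did not vary alike. The biological coefficient of variation was 60.9% in the BPH-1 fit and 23.7% in the RWPE-1 fit, so its p values are to be read with care. HOXB4 (6.01 ± 1.89, adjusted p = 0.0219) was listed as higher. The remaining member, HOXC4, was named after its values were seen because its mean level was below 1 CPM. It had 1, 2 and 0 counts in the BPH-1 C-Raf parental libraries and 0 to 7 in the BPH-1 lines, so its fitted difference is not read as a result. The value of HOXB4 rests on 1 library. Without R071 it was 1.18 (adjusted p = 0.152) and without the 3 libraries of few protein-coding counts 1.02 (adjusted p = 0.114), where 8 members passed against 44.5% of all genes. Without R072 as well, 10 passed against 50.2%.

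In the fit of both cell lines, 1 of 38 members differed between parental cells and lines from metastases (edgeR), against 2.48% of all genes (1.94% higher and 0.541% lower). It was HOXB1, named after its values were seen because it lay far below 1 CPM. HOXB1 had 10, 3 and 6 counts in the 3 deep BPH-1 lines, 1 count in RWPE-1 line Bone4 and 0 in all 7 C-Raf parental libraries. It entered the test through the lines in which it was seen, and without line R069 and with DESeq2 0 members were called, so no test of it is given.

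Several noncoding genes of the HOXA cluster were also lower in BPH-1 C-Raf cells. HOTTIP, the noncoding RNA next to HOXA13, had 3.60, 3.0 and 3.08 CPM in BPH-1 vector controls and 0.717, 0.966 and 0.754 CPM in BPH-1 C-Raf cells. HOXA10-AS had 12.7, 12.5 and 12.5 CPM and 5.08, 5.05 and 5.34 CPM, and HOTAIRM1, at the anterior end, 9.95, 9.18 and 9.62 CPM and 6.79, 6.51 and 6.20 CPM. In each case the groups did not overlap, and no test of noncoding genes is given here. These genes were named after their values were seen, and the share of all genes without overlap was not counted. In the same comparison 59.8% of all protein-coding genes tested passed the threshold. In RWPE-1 HOXA10-AS had 18.1 CPM in the vector control and 15.1 to 18.2 CPM in C-Raf cells. HOTAIRM1 was lower in each RWPE-1 C-Raf library, at 3.27 to 4.58 CPM against 5.09 CPM in the vector control. HOTTIP was at 0.172 CPM in the RWPE-1 vector control and 0.101 to 0.281 CPM in C-Raf cells. HOXD-AS2 ran the other way in BPH-1, from 1.22, 1.61 and 1.40 CPM to 2.71, 2.55 and 2.47 CPM.

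The HOX cofactors considered were 9 TALE homeodomain genes. Of 8 tested between BPH-1 C-Raf parental cells and vector control, 1 rose and 3 fell (edgeR), beside 59.8% of all genes past the threshold. MEIS2 went from 9.57, 10.2 and 9.41 CPM to 3.05, 2.90 and 2.67 CPM, a log2 fold change of -1.77 ± 0.10 (adjusted p = 2.74e-15). PKNOX1 rose by 0.12 (adjusted p = 0.0219). RWPE-1 C-Raf parental cells were higher than those of BPH-1 for 6 of 8, beside 38% of all genes, and lower for 1, beside 36%, with PBX3 at 2.52 ± 0.07 (adjusted p = 2.09e-07). From parental cells to the lines from metastases 3 of 9 rose in BPH-1, beside 9.53% of all genes, and 0 of 8 passed in RWPE-1, beside 0.0985%, with 2 at an unadjusted p below 0.05. The shallow BPH-1 libraries stood apart, with cofactor sums of 2882, 424 and 3677 CPM in R071, R074 and bone R075 against 95.3 to 110 CPM in the deep lines and 88.2 to 89.5 CPM in parental cells.

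Of 25 Polycomb and Trithorax genes and their partners, 5 rose and 11 fell in BPH-1 C-Raf cells, a share near the 59.8% of all genes. PHC2, a Polycomb subunit, rose from 67.8, 67.6 and 65.7 CPM to 121, 122 and 114 CPM (log2 fold change 0.81 ± 0.03, edgeR adjusted p = 2.38e-18), and RNF2, a Polycomb ubiquitin ligase, by 0.32 ± 0.06 (adjusted p = 3.96e-05). JARID2, a partner of Polycomb, fell by 0.42 on the log2 scale (adjusted p = 5.32e-08) and PHC1 by 0.40 (adjusted p = 3.31e-06). In RWPE-1 metastasis-derived lines 0 of 25 passed, with 0 at an unadjusted p below 0.05. As only 0.0985% of all genes passed there, the first count says nothing about these genes.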

How the data were processed

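RNA was sequenced in 24 libraries. The authors deposited 4 tables of expected counts per gene symbol from RSEM, with STAR, cutadapt, FastQC and hg38 in the submitters' processing notes, and versions and strand setting not given in the sources used here. No normalization had been applied, and 0 columns belonged to other samples. Of 60448 symbols, 36628 were matched to GENCODE 29 and 1044 by RefSeq name. Expected counts were rounded, protein-coding genes (19238) kept by filterByExpr (minimum count 10, minimum total 15) and scaled by TMM, and edgeR 4.0.16 (R 4.3.3) quasi-likelihood fits were adjusted by Benjamini-Hochberg over all genes tested, with a threshold of 0.05. SEs come from the F statistic. The scripts were tested on simulated data. Fits within a comparison used only its groups, and those across both cell lines used all 24 libraries with terms for line and stage. Members and lists were chosen with earlier results of these data known. Genes given in full were HOXB13, HOXA13, the highest gene per length of each cluster in each line and, per comparison, up to 4 called genes per direction with the largest change and a mean of at least 1 CPM (up to 2 for cofactors and chromatin genes), others being chosen after their values were seen. Alternatives were DESeq2 1.42.0, RLE scaling, no filter, all genes, ComBat-seq (sva 3.50.0), a table term, each library left out, and libraries of few counts left out. Some genes are not reported here by name, though counts over members and lists include them. Intervals of 95% cover counting error only.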

Additional observations from a re-analysis of the deposited data

Results flagged for a closer look

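Of 51 gene and group combinations tested for 1 sample far from the others, 7 held such a sample. Chance gives about 1 in 20, but 3 of the 7 rest on 1 count, so the number is not compared with it. In RWPE-1 lines from metastases, Spine2 stood above the other 6 with 7.91 CPM of HOXB4 and 3.69 CPM of HOXB3, and Bone4 with 11.7 CPM of HOXD8. Among RWPE-1 C-Raf parental libraries, the third had 1 count of HOXB2 (0.0262 CPM) and the others 0. Among BPH-1 lines from metastases, R071 had 124 CPM of HOXB4 (30 counts), R074 8.01 CPM of HOXB6 (1 count) and the line titled bone R075 20.2 CPM of HOXC10 (1 count).

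A fit of the difference between the metastasis effects of the cell lines, BPH-1 minus RWPE-1 on the log2 scale, called 4 members (edgeR, adjusted p from 0.00206 to 0.0245), with -2.52 for HOXB6, -2.07 for HOXD13, 6.01 for HOXB4, which was 1.18 without R071 (adjusted p = 0.152), and 2.91 for HOXC4, which had 3 counts in all over the BPH-1 C-Raf parental libraries.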

How the results depend on the processing

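For the named genes, 271 of the alternative values kept their direction and their side of the threshold, 18 no longer passed and 0 turned direction. Fits without a value for a gene are not counted. HOXB4 in the BPH-1 lines from metastases had a value in 6 of 9 fits with 1 library left out. The counts include HOXB4, HOXC10 and HOXD1 between the cell lines, for which no test is given above. The 18 were HOXB4 and HOXB6 in the BPH-1 lines from metastases, HOXB4 in the difference of metastasis effects and HOXB7 in BPH-1 C-Raf cells, which was lost with DESeq2, without vector control 1 and without C-Raf library 2. Leaving out each library in turn gave 16 to 20 called members for the C-Raf effect in BPH-1 and 26 to 29 between the cell lines. It gave 0 to 3 for BPH-1 metastasis, 0 for RWPE-1 metastasis, 0 to 3 for C-Raf and 0 to 1 for metastasis in the fit of both lines, and 2 to 7 for the difference of metastasis effects. The 3 for C-Raf came without the RWPE-1 vector control, when only BPH-1 vector controls remained. For BPH-1 metastasis DESeq2 called 1 member, and 8 passed without the 3 libraries of few protein-coding counts and R072. For C-Raf across both lines DESeq2 called 4, 2 passed without the 3 libraries and 1 with a term for the second RWPE-1 table. For metastasis across both lines 0 passed with DESeq2, with all genes of the tables or with ComBat-seq followed by DESeq2. For the difference of metastasis effects 8 passed without the 3 libraries and 10 also without R072. The causes were not tested. With a replicate block 21 members were called for the C-Raf effect in BPH-1, as without it, and same-numbered libraries did not deviate together (correlations -0.0068, -0.089 and -0.045). With 3 counts as a floor, the 3 libraries cannot show a member below 12.4, 24.02 and 60.6 CPM.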
